A study of Mus musculus with 35 samples.

Results

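The genes described here are 36 mouse genes that cells switch on in response to interferon. They form 2 classes: 28 targets of type I interferon, and 8 genes made up of the transcription factor Irf1, interferon-inducible GTPases and components of antigen processing for MHC class I. They were picked by name, with earlier results of these arrays known. Of the 36, 33 had a probe set of their own on the arrays and are analysed here, 26 type I targets and 7 of the second class, out of 18820 genes in all. Ifi44 is named only. Oas1g and Igtp lay on probe sets shared with Oas1a and with Irgm2, which are reported as pairs.

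RNA from 35 mouse livers or liver tumors was measured on expression arrays, with 1 array per sample. In the DEN model, mice received the carcinogen diethylnitrosamine by intraperitoneal injection at 15 days of age, at 10 mg per kg body weight, and were examined at 9 months: 5 tumors, 5 samples of non-tumorous liver (NTL) and 5 untreated control livers. In the LT model, tg1223 mice, which make lymphotoxin alpha and beta at a high level in the liver, were followed for 12 months: 3 tumors and 5 NTL samples. In the MYC model, TRE-MYC mice carried the LAP-tTA transgene as well, whose liver promoter drives the transactivator. Doxycycline chow at 200 mg/kg held MYC off until 8 weeks of age and was then withdrawn, and 5 tumors and 3 NTL samples were taken at an age not given in the sources used here. The LT and MYC groups share 4 untreated control livers, so their comparisons with controls are not independent of each other. The labels describe controls as matched in sex and age.

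Type I interferon binds the receptor Ifnar1 and Ifnar2 and acts through Jak and Stat proteins. Stat2 and Irf9 are parts of the complex that binds the interferon-stimulated response element (ISRE) in the promoters of its target genes. Interferon gamma acts through Ifngr1 and Ifngr2 and a Stat dimer that binds the gamma-activated sequence (GAS), and it raises Irf1, which in turn raises guanylate-binding proteins, immunity-related GTPases and the antigen-processing genes. Many targets answer to both. In the liver, hepatocytes, endothelium and immune cells can all respond.

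Promoter sequences are shown first because the members that moved together or apart below can be set beside the motifs they carry. RefSeq promoters of build GRCm38.p6, from 250 bases before to 50 bases after each start, were found for 28 of the 36 members. Usp18, Oas2, Mx1, Mx2, Dhx58, Rtp4, Zbp1 and Parp14 are named only. The ISRE core, read as GAAA, any 2 bases and GAAA on either strand, lay in the promoters of 16 of 28 members (57.1%), against 3.99% of the 27025 genes in the table. It was present in 12 of 20 type I targets and in 4 of 8 genes of the second class. The GAS motif, TTCNNNGAA, lay in 6 of 28 members (21.4%), against 9.55% of all genes. A match of letters is a description and not a bound site. The 140 bases before the start are printed for Isg15 and Ifit1 as type I targets, for Trim30a and Bst2, which moved differently in MYC tumors, and for Gbp2 and Psmb8, which were lower there than in controls. Capitals mark the ISRE core, or the GAS motif in Psmb8.
Isg15, chr4:156200819-156200958, minus strand: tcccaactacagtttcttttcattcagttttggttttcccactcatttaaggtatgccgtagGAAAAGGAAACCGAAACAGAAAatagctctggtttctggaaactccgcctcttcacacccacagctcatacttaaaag
Ifit1, chr19:34640749-34640888, plus strand: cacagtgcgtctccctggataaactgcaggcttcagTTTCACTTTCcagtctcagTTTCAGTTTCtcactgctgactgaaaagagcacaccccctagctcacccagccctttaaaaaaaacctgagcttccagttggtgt
Trim30a, chr7:104465194-104465333, minus strand: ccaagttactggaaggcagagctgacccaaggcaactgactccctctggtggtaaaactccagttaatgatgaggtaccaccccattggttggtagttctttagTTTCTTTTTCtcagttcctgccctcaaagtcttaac
Bst2, chr8:71537473-71537612, minus strand: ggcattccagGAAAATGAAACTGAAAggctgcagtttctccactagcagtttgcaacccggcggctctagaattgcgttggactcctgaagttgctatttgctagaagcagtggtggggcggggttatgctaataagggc
Gbp2, chr3:142620523-142620662, plus strand: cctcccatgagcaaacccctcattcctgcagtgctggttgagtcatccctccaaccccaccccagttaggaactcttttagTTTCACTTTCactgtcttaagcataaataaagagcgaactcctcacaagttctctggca
Psmb8, chr17:34198055-34198194, plus strand: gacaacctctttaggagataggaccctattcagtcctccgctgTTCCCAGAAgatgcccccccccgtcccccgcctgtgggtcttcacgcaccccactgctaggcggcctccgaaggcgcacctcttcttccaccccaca

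In these windows the ISRE matches of Isg15, Bst2 and Gbp2 began 78, 130 and 59 bases before the start, those of Ifit1 at 104 and 85 bases, and that of Trim30a at 36 bases. In Isg15 further matches lie at 72 and 66 bases, and in Bst2 one at 124 bases, and each overlaps the match before it. Bst2 also holds a GAS match, at 136 bases, which overlaps its first ISRE core. Tap1 and Psmb9 lie head to head on chromosome 17, with start sites at 34187556 and 34187330 and 225 bases between them, and so share most of their promoter window. Neither motif's letters occur in it.

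Values are on a log2 scale, and a difference of 1 is a doubling. Array medians lay between 5.59 and 5.73, and no 2 arrays were identical. The 9 hepatocyte markers had a summed level of 16.2 to 16.5 (log2 of the sum of their linear values) in every group. In MYC tumors it was 16.24 to 16.35, below the 16.41 to 16.42 of MYC NTL. Singly, 3 of the 9 were higher and 1 lower in DEN tumors than in NTL (limma, adjusted p under 0.05). None passed in LT tumors, and 3 were lower in MYC tumors. These are 44.4%, 0% and 33.3%, beside 32.2%, 20.4% and 21.8% of all genes. Xist, which coats an inactive X, was high (11.7 to 12.2) in 9 arrays: the 3 LT tumors, LT NTL samples 1, 3, 4 and 5, and sample 3 of each control group. In the other 26 arrays it was at most 6.24. Xist was thus not matched between most LT samples and their controls, nor in DEN control 3, although the labels call controls matched in sex. Mouse identifiers of DEN tumors 1 and 4, of DEN tumors 3 and 5 and of LT tumors 1 and 2 share a stem, so these may come from the same animal, which the labels do not settle. The identifiers of the MYC NTL samples begin with WT, and these samples were kept in the group the labels give. Bulk liver RNA was measured, in which more cells of a type and more RNA per cell cannot be told apart. Oas1a, the Ifit genes, the Gbp genes and Irgm1 have close paralogs whose transcripts their probes could share, which leaves their values uncertain to that extent.

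**Figure D1:**
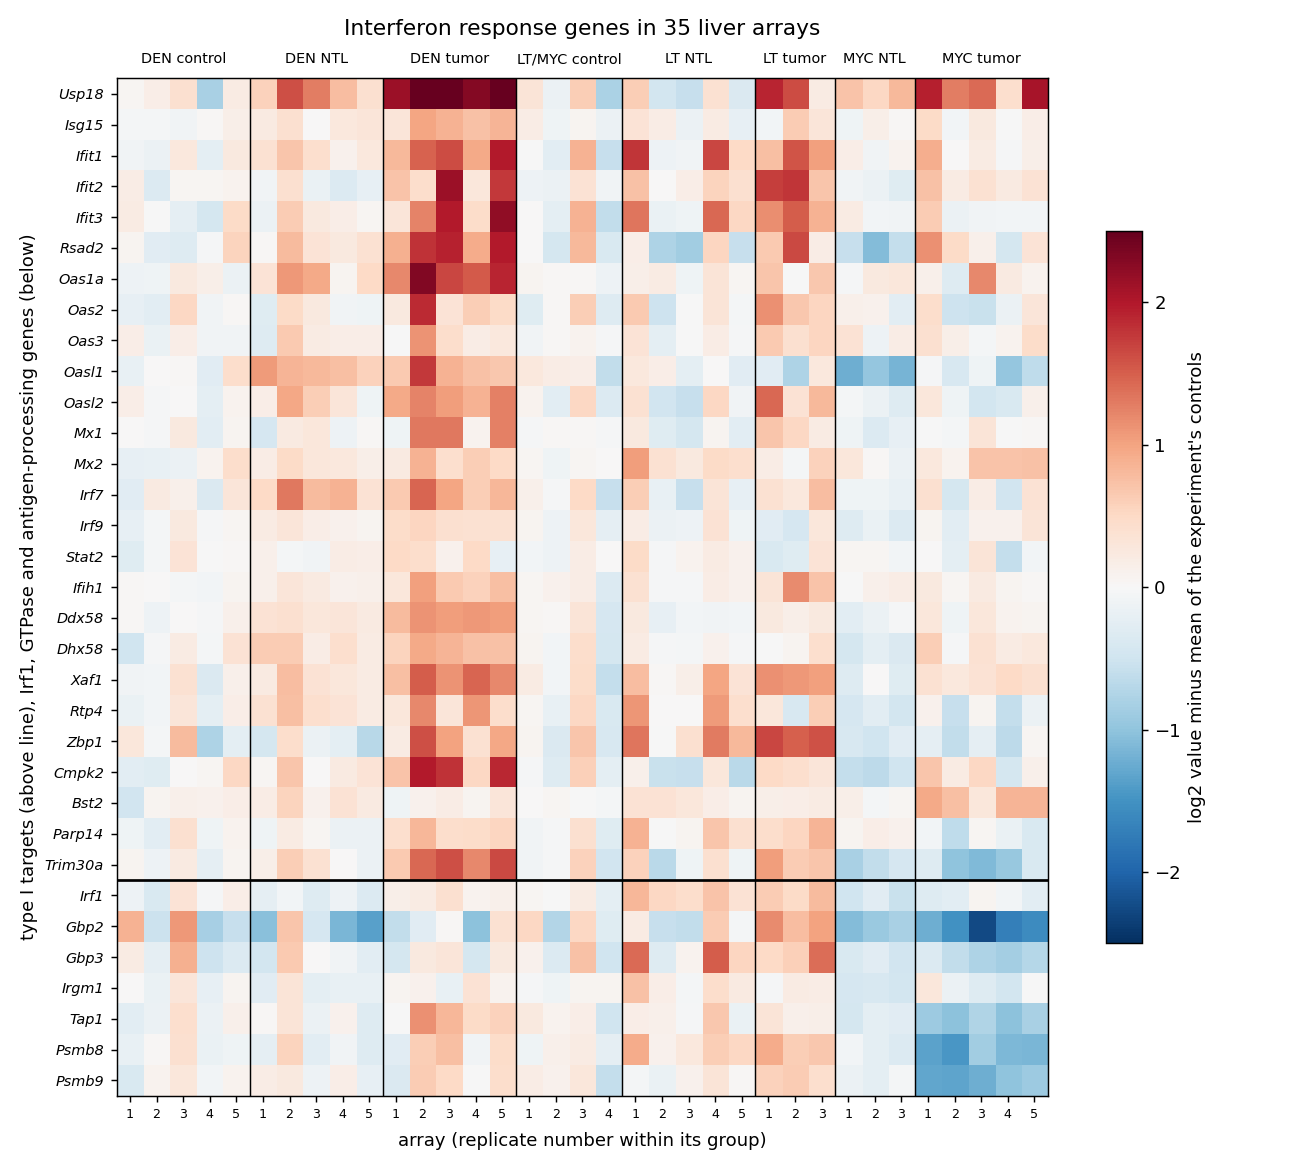
Heat map of the 33 measured interferon response genes (rows, type I targets above the line) in the 35 arrays (columns, by group). Colour gives each array's log2 value minus the mean of its experiment's controls, cut at 2.5 in each direction. DEN tumors are red over most type I targets, and MYC tumors are blue for Gbp2, Tap1, Psmb8 and Psmb9.

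The comparison of DEN tumors with DEN NTL asks what distinguishes carcinogen-induced tumors from the liver around them. Type I targets were higher in the tumors: 17 of 26 rose and none fell. Of the second class, Irf1 and Tap1 rose and the other 5 did not pass the test. Across all 18820 genes, 32.2% were called, 15.6% higher and 16.7% lower (limma, adjusted p under 0.05). The median log2 change was 0.68 over the type I targets and 0.36 over the second class, against -0.04 over all genes. Without each array in turn, 16 of the 19 calls held; Oas2, Ifit3 and Oasl2 were each lost at least once.

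Usp18, the protease that removes Isg15 from proteins and damps the type I receptor, had the largest change among the members. Its log2 values in the 5 DEN tumors were 9.96, 10.55, 11.19, 10.12 and 10.82, in DEN NTL 8.40, 9.42, 9.10, 8.59 and 8.22, and in DEN controls 7.86, 7.99, 8.21, 7.0 and 8.03. Every tumor was above every NTL and control sample. The change from NTL was 1.78 ± 0.34 (SE, adjusted p = 0.000147), a 3.43-fold rise. Isg15 itself, the ubiquitin-like modifier, read 5.34, 6.01, 5.90, 5.77 and 5.89 in tumors and 5.26, 5.43, 5.05, 5.30 and 5.34 in NTL. All of these tumors but tumor 1 were above the whole NTL range, and the rise was 0.50 ± 0.13 (SE, adjusted p = 0.00258).

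Rsad2, the antiviral enzyme viperin, read 7.75, 8.66, 8.78, 7.79 and 8.85 in DEN tumors and 6.88, 7.65, 7.21, 7.10 and 7.24 in NTL. The groups did not overlap, and the change was 1.15 ± 0.31 (SE, adjusted p = 0.00465). Ifit2, which binds foreign RNA, read 6.20, 5.94, 7.63, 5.78 and 7.26 in tumors and 5.41, 5.90, 5.34, 5.16 and 5.29 in NTL. Tumors 3 and 5 stood well above the others, but they share an identifier stem and may come from the same animal. Tumor 4 lay inside the NTL range, and the change was 1.14 ± 0.25 (SE, adjusted p = 0.000749). The related Ifit1 and Ifit3 rose by 1.0 ± 0.30 and 1.05 ± 0.33. Without tumor 3 or tumor 5 Ifit3 was not called (highest adjusted p = 0.0623).

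The Oas family, whose enzymes make oligoadenylates in response to viral RNA, held called and uncalled members. Oas1a read 6.89, 8.0, 7.35, 7.22 and 7.59 in DEN tumors and 6.03, 6.77, 6.64, 5.76 and 6.18 in NTL. Every tumor lay above every NTL sample, with a change of 1.13 ± 0.21 (SE, adjusted p = 0.000111). The probe set shared by Oas1a and Oas1g rose by 1.60 ± 0.23 (adjusted p = 3.83e-06). Oas2 rose by 0.67 ± 0.26, but without tumor 2, which read 8.73 against at most 7.48 in the other tumors, the change was 0.38 with an adjusted p of 0.233, and it was not called without tumor 4 or 5 or NTL sample 1, 3, 4 or 5 either. Oas3 and Oasl1 did not pass the test (changes of 0.23 and 0.13), and Oasl2 rose by 0.68 ± 0.21, with an adjusted p of 0.0549 without NTL sample 5.

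The remaining calls in DEN tumors covered several functions. Among RNA sensors, Ddx58, also known as RIG-I, rose by 0.70 ± 0.10 (SE, adjusted p = 1.76e-06), with the groups apart, and Ifih1 by 0.48 ± 0.12, while Dhx58 was not called (0.35 ± 0.14, adjusted p = 0.0629). Trim30a, a ubiquitin ligase of the TRIM family, rose by 1.11 ± 0.21, and Cmpk2, a mitochondrial nucleotide kinase, by 1.12 ± 0.26. Zbp1, a sensor of left-handed nucleic acid, rose by 1.05 ± 0.28. The rises of Xaf1, Mx1 and Parp14 were 0.84, 0.78 and 0.57. With only the groups compared in the fit, Mx1 was not called against NTL (adjusted p = 0.0768) or against controls (adjusted p = 0.0755).

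None of the transcription factors Irf7, Irf9 and Stat2 was called in DEN tumors against NTL. Irf7 read 9.35, 10.15, 9.69, 9.31 and 9.54 in DEN tumors and 9.20, 10.01, 9.50, 9.57 and 9.06 in NTL. These ranges overlap almost entirely, with a difference of 0.14 ± 0.23 (SE, adjusted p = 0.678). Irf9 read 9.80, 9.88, 9.74, 9.73 and 9.72 in tumors and 9.56, 9.65, 9.52, 9.45 and 9.42 in NTL. Every tumor was above every NTL sample by a small margin, and the difference of 0.26 ± 0.12 (SE, adjusted p = 0.101) was not called. Stat2 read 9.66, 9.60, 9.26, 9.64 and 8.95 in tumors and 9.28, 9.10, 9.07, 9.33 and 9.32 in NTL, which overlap, with a difference of 0.20 ± 0.15 (SE, adjusted p = 0.326).

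Tap1, a subunit of the peptide transporter that loads MHC class I, read 8.01, 9.16, 8.84, 8.50 and 8.60 in DEN tumors and 8.05, 8.34, 7.87, 8.12 and 7.69 in NTL. Tumor 1 was within the NTL range and the other 4 tumors were above it, with a change of 0.60 ± 0.17 (SE, adjusted p = 0.00673). Irf1 read 8.66, 8.71, 8.91, 8.61 and 8.64 in tumors and 8.29, 8.44, 8.19, 8.38 and 8.17 in NTL, without overlap, and rose by 0.41 ± 0.11 (SE, adjusted p = 0.00456). The immunoproteasome subunit Psmb8 read 7.47, 8.36, 8.49, 7.67 and 8.22 in tumors and 7.53, 8.30, 7.48, 7.66 and 7.42 in NTL. Its ranges overlap, with a difference of 0.36 ± 0.18 (SE, adjusted p = 0.127). Gbp2, a guanylate-binding protein, read 6.49, 6.81, 7.13, 6.08 and 7.49 in tumors and 6.05, 7.80, 6.69, 5.96 and 5.74 in NTL, which also overlap. Its difference was 0.36 ± 0.37 (SE, adjusted p = 0.497), and its paralog Gbp3 differed by 0.02 ± 0.30. Irgm1, an immunity-related GTPase, read 9.49, 9.54, 9.23, 9.79 and 9.51 in tumors and 9.14, 9.74, 9.17, 9.24 and 9.24 in NTL, with a difference of 0.21 ± 0.14. The probe set of Irgm2 and Igtp differed by -0.17 ± 0.21, so no Gbp or Irg gene among the members was called in DEN tumors.

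**Figure D2:**
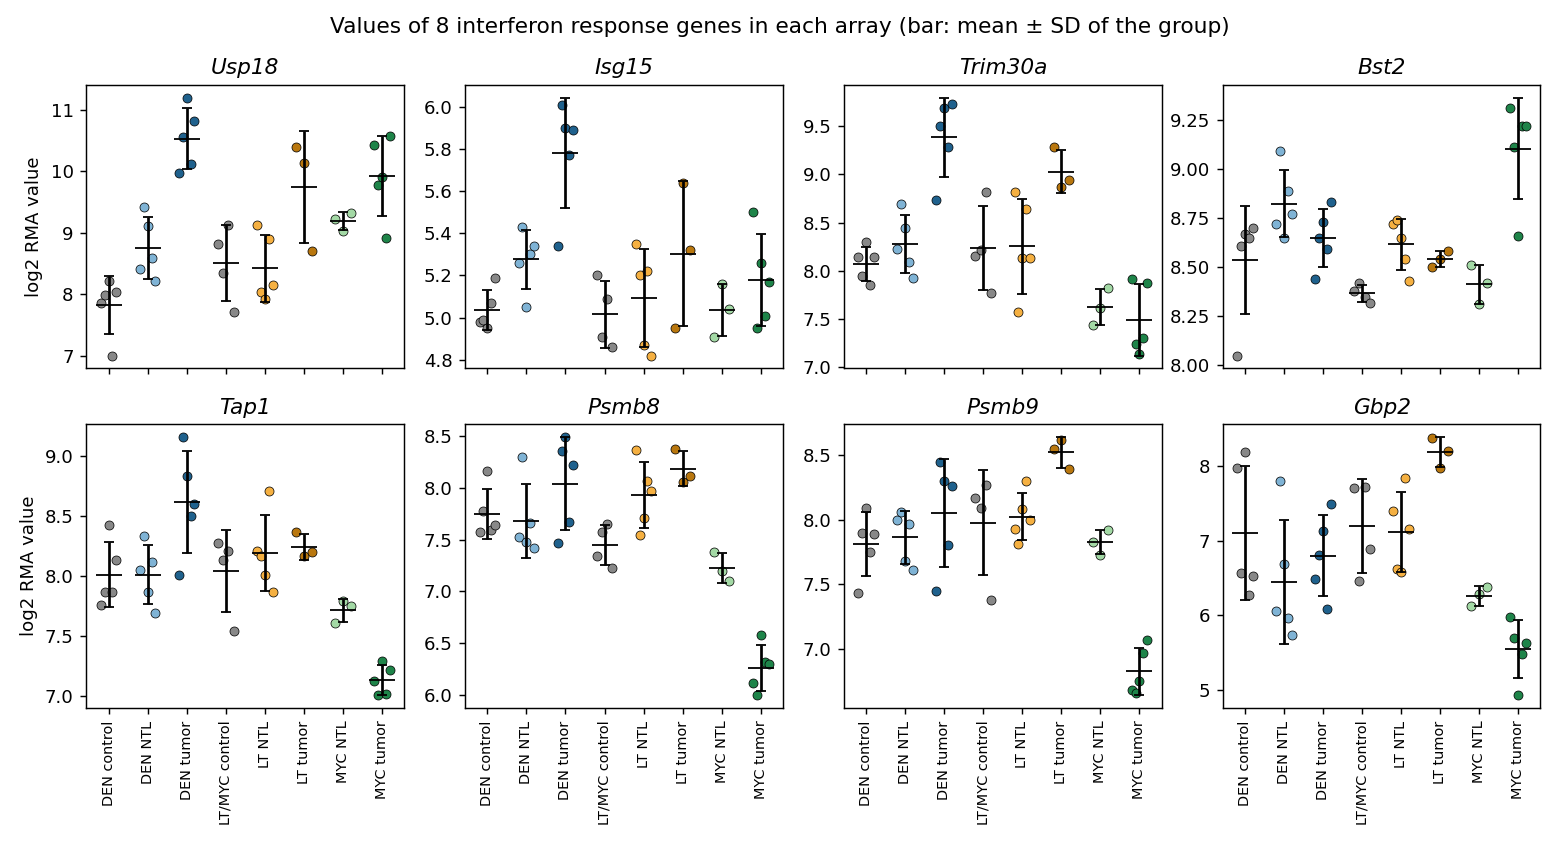
Log2 values of 8 members in each array (points) by group, with the mean and SD of the group as a bar; axes differ between panels and do not start at 0. Usp18, Isg15 and Trim30a are highest in DEN tumors, Bst2 is highest in MYC tumors, and Tap1, Psmb8, Psmb9 and Gbp2 are lowest in MYC tumors.

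Markers of immune and endothelial cells moved in different directions in DEN tumors. None of 5 general leukocyte markers was called against NTL, and their summed level was 9.86 to 10.5 in tumors and 9.93 to 11.1 in NTL. All 8 Kupffer cell markers fell, with a change of -1.96 ± 0.41 for Clec4f and a summed level of 9.85 to 11.6 in tumors and 12.1 to 13.0 in NTL. Of 9 monocyte-derived cell markers 4 rose, while 3 of 14 T and NK cell markers and 2 of 7 B cell markers fell. Of 7 vascular endothelial markers 4 rose (summed level 11.5 to 12.0 in tumors and 11.0 to 11.2 in NTL), and of 7 sinusoidal endothelial markers 3 fell (11.6 to 12.8 and 12.8 to 13.0). Of 6 markers of plasmacytoid dendritic cells, a major source of type I interferon, 1 rose, and Siglech, a surface receptor of these cells, did not pass the test (0.27 ± 0.14). The summed level of these 6 markers was 9.28 to 9.83 in tumors and 8.86 to 9.02 in NTL, without overlap. Bright markers weigh most in this sum of linear values. The single changes ran from -0.13 to 0.82, with a median of 0.15. In this comparison 32.2% of all genes were called, 15.6% higher and 16.7% lower. The T and NK cell (21.4%), B cell (28.6%) and plasmacytoid dendritic cell (16.7%) shares lie below 32.2%. Shares above it were 100% for Kupffer cells, 44.4% for monocyte-derived cells, and 57.1% and 42.9% for vascular and sinusoidal endothelium. The part of these immune and endothelial cells in the interferon response was not tested.

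Against untreated controls, more members were called in DEN tumors: 24 of 33 rose and none fell, 23 of 26 type I targets and Tap1 of the second class, against 30.7% of all genes called, 15% higher and 15.6% lower. Median changes were 0.87 for type I targets and 0.20 for the second class. Usp18 rose by 2.71 ± 0.34 (SE, adjusted p = 2.7e-07), or 6.53-fold. For Oas1a, the controls read 5.56, 5.57, 5.92, 5.82 and 5.54, all below every tumor, and the rise was 1.73 ± 0.21 (SE, adjusted p = 1.73e-07). Rsad2 read 6.92, 6.58, 6.54, 6.84 and 7.42 in controls and rose by 1.51 ± 0.31 (SE, adjusted p = 0.000299). Tap1 read 7.76, 7.87, 8.43, 7.87 and 8.14 in controls, whose sample 3 lies inside the tumor range, and rose by 0.61 ± 0.17. Leaving out each array in turn kept 21 of the 24 calls; without DEN tumor 2, Oas2 was 0.42 with an adjusted p of 0.186, and Rtp4 and Zbp1 also lost their calls. Control 4 had the same effect on all 3, controls 1, 2 and 5 and tumor 4 on Oas2, control 1 and tumor 4 on Rtp4, and control 5 on Zbp1.

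Irf7 and Irf9, not called against NTL, were higher than in controls. Irf7, a transcription factor that amplifies interferon production, read 8.42, 8.92, 8.82, 8.34 and 9.01 in DEN controls, below all 5 tumors, and rose by 0.91 ± 0.23 (SE, adjusted p = 0.0022). Irf9 read 9.14, 9.30, 9.59, 9.32 and 9.39 in controls and rose by 0.43 ± 0.12 (SE, adjusted p = 0.00571), while Stat2 read 8.85, 9.09, 9.50, 9.14 and 9.18 and was not called (0.27 ± 0.15). Oasl1 rose by 0.94 ± 0.21. Irf1 read 8.39, 8.14, 8.86, 8.49 and 8.68 in controls and Psmb8 7.57, 7.78, 8.16, 7.59 and 7.64, and neither was called against controls. Gbp2 read 7.97, 6.56, 8.19, 6.27 and 6.52 in controls and Irgm1 9.42, 9.25, 9.72, 9.22 and 9.49, and both overlap the tumors.

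In DEN NTL against controls no member was called by limma, against 0.197% of all genes (0.0691% higher and 0.128% lower), although 8 of 33 were higher at an unadjusted p under 0.05 and none lower, against 5.01% of all genes higher and 4.54% lower at that threshold. The largest differences were 0.93 ± 0.34 for Usp18, 0.81 ± 0.21 for Oasl1 and 0.77 ± 0.23 for Irf7, with adjusted p of 0.354, 0.11 and 0.19. For all 3, every NTL sample was above every control sample. Fitted on these 2 groups alone, 2 members were called higher, and 183 of all genes were called against 37 in the main fit.

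The LT comparison asks what distinguishes tumors that arose under hepatic lymphotoxin from their own NTL. Type I targets again made up the calls: 7 of 26 rose, none fell, and none of the 7 genes of the second class was called. Across all genes 20.4% were called, 10.7% higher and 9.73% lower, while the 7 calls are 21.2% of the members, near that background. The split by class rests on the cutoff. At an unadjusted p under 0.05 (limma), 13 of 26 type I targets and 2 of 7 genes of the second class were higher. Of all genes, 31.9% passed that threshold in either direction. Gbp2, not called, changed by 1.07. Median changes were 0.48 for type I targets and 0.17 for the second class, against -0.03 over all genes. All 7 were also called higher in DEN tumors, where they are 36.8% of the 19 calls. The same overlap was not counted over all genes, so no background share stands beside it. With only the LT groups in the fit no member was called, and with LT tumors 1 and 2 averaged 2 were. Over all genes the calls fell as well, from 3838 to 615 and 2311.

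Usp18 read 10.39, 10.13 and 8.70 in the 3 LT tumors and 9.12, 8.04, 7.92, 8.89 and 8.14 in LT NTL. Tumors 1 and 2 were above all NTL samples and tumor 3 was not, with a change of 1.32 ± 0.39 (SE, adjusted p = 0.0163). Rsad2 read 7.69, 8.68 and 7.20 in tumors and 7.19, 6.26, 6.15, 7.57 and 6.46 in NTL. Tumor 3 lay inside the NTL range, the change was 1.13 ± 0.36 (SE, adjusted p = 0.0239), and it was 0.72 (adjusted p = 0.223) without tumor 2. Ifit2 read 7.23, 7.29 and 6.19 in tumors and 6.22, 5.51, 5.65, 6.04 and 5.90 in NTL. Tumors 1 and 2 stood more than 1 log2 unit above the highest NTL sample and tumor 3 lay inside the NTL range. The change was 1.03 ± 0.29 (SE, adjusted p = 0.0112). Tumors 1 and 2 share an identifier stem and may come from the same animal. With these 2 averaged, Usp18, Rsad2 and Ifit2 were not called (limma, adjusted p of 0.128, 0.112 and 0.0531).

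Trim30a, at 9.28, 8.87 and 8.94 in LT tumors and 8.82, 7.57, 8.13, 8.64 and 8.13 in NTL, separated the groups and rose by 0.77 ± 0.25. Xaf1, at 7.95, 7.90 and 7.84 in tumors and 7.58, 6.84, 6.96, 7.79 and 7.15 in NTL, did so as well and rose by 0.63 ± 0.20. Oasl2 and Ifih1 rose by 0.92 ± 0.25 and 0.62 ± 0.14; the Ifih1 change was 0.40 (adjusted p = 0.0546) without tumor 2. None of the 7 calls held without every array in turn. Usp18, Ifit2, Rsad2, Oasl2, Xaf1 and Trim30a lost theirs without tumor 1, with adjusted p of 0.177 for Usp18 and 0.151 for Oasl2. Usp18, Ifit2, Rsad2, Ifih1 and Xaf1 lost theirs without tumor 2. Without NTL sample 2, 3 or 5, Rsad2, Xaf1 and Trim30a were not called. The count was then 1 without tumor 1, 2 without tumor 2, 4 without NTL sample 2, 3 or 5, and 11 without NTL sample 1.

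Other type I targets overlapped between LT tumors and NTL. Ifit1 read 9.01, 7.09, 7.13, 8.88 and 7.71 in NTL and 7.98, 8.79 and 8.25 in tumors. Ifit3 read 9.60, 8.10, 8.16, 9.70 and 8.79 in NTL and 9.42, 9.78 and 9.14 in tumors. NTL samples 1 and 4 were within or above the tumor range for both. Isg15 read 4.95, 5.64 and 5.32 in tumors and 5.35, 5.20, 4.87, 5.22 and 4.82 in NTL, which overlap. Among the transcription factors, Irf7 read 8.96, 8.83 and 9.34 in tumors and 9.18, 8.39, 7.99, 8.90 and 8.36 in NTL. Irf9 read 9.09, 8.95 and 9.66 in tumors and 9.56, 9.23, 9.24, 9.74 and 9.26 in NTL. For Stat2 the tumors read 8.71, 8.78 and 9.43 and NTL 9.56, 9.05, 9.17, 9.30 and 9.19. All 3 factors overlapped between the groups and none was called, with differences of 0.48 ± 0.26, -0.17 ± 0.14 and -0.28 ± 0.17.

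In the second class, Gbp2 read 8.38, 7.98 and 8.20 in LT tumors and 7.40, 6.62, 6.58, 7.84 and 7.15 in NTL. All 3 tumors were above all 5 NTL samples, but the difference of 1.07 ± 0.43 (SE, adjusted p = 0.0771) did not pass the test. Psmb8 read 8.38, 8.06 and 8.12 in tumors and 8.37, 7.55, 7.71, 8.07 and 7.97 in NTL. Tap1 read 8.37, 8.17 and 8.20 in tumors and 8.21, 8.17, 8.01, 8.71 and 7.87 in NTL. Both overlapped, with differences of 0.25 ± 0.21 and 0.05 ± 0.20. Irf1 read 8.90, 8.75 and 9.06 in tumors and 9.09, 8.79, 8.70, 8.98 and 8.63 in NTL. Irgm1 read 9.35, 9.60 and 9.56 in tumors and 10.13, 9.55, 9.33, 9.82 and 9.61 in NTL. These too overlapped, with differences of 0.06 ± 0.13 and -0.18 ± 0.16.

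Against the shared controls 12 members rose in LT tumors and none fell, 10 type I targets and Irf1 and Psmb8, against 16.5% of all genes called, 8.78% higher and 7.73% lower. Median changes were 0.50 for type I targets and 0.64 for the second class. Zbp1 read 8.99, 8.82 and 8.90 in tumors and 7.37, 6.94, 8.02 and 6.92 in controls, without overlap, and rose by 1.59 ± 0.34 (SE, adjusted p = 0.00221). Ifit2 read 5.37, 5.35, 5.86 and 5.40 in controls and rose by 1.41 ± 0.30 (SE, adjusted p = 0.00242). Usp18 read 8.82, 8.35, 9.12 and 7.71 in controls, whose samples 1 and 3 exceed tumor 3, and rose by 1.24 ± 0.41 (SE, adjusted p = 0.0369). Control values were 8.31, 8.26, 8.47 and 8.02 for Irf1 and 7.34, 7.57, 7.65 and 7.23 for Psmb8. Both genes were higher in every tumor than in any control, by 0.64 ± 0.13 and 0.74 ± 0.22.

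This comparison moves with Xist, which is high in all 3 LT tumors and in 1 of 4 controls. With a term for high Xist in the fit, 2 of the 12 calls remained, Ifit2 (1.16, adjusted p = 0.0469) and Ifih1 (0.65, adjusted p = 0.0265), and Zbp1 was 0.86 (adjusted p = 0.103). Over all genes the calls fell from 3107 to 1273 with this term. Control 3, the one with high Xist, read 8.08 for Ifit1 and 9.13 for Ifit3, against 7.22 and 8.27 at most in the other controls. With the replicate number as a block, 8 were called, without Usp18, Ifit1, Ifit3 and Trim30a. Without each array in turn 5 of the 12 held: Ifit2, Irf1, Ifih1, Xaf1 and Zbp1. Without LT tumor 1 there were 6 calls, without control 2 there were 6 and without control 4 there were 5, and Oasl2 was 0.58 (adjusted p = 0.225) without tumor 1. Of the calls lost, Psmb8 failed without control 4 or tumor 1, Oasl2 without control 2 or 4 or tumor 1, and Usp18 without control 2 or 4 or tumor 1 or 2. Ifit1, Ifit3 and Trim30a failed without control 1, 2 or 4 or tumor 1 or 2, and Parp14 without control 1, 2 or 4 or tumor 3. Against LT NTL, where 4 of 5 samples have high Xist, the same term left all 7 calls in place.

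LT NTL against the shared controls gave 1 call, Irf1, against 2.41% of all genes (1.37% higher and 1.04% lower). Irf1 rose by 0.57 ± 0.12 (SE, adjusted p = 0.00734), with every NTL sample above every control. With the Xist term it was not called. At an unadjusted p under 0.05, 10 of 33 members were higher and none lower, against 7.83% of all genes higher and 7.72% lower. In these controls Isg15 read 5.20, 4.91, 5.09 and 4.86, Irf7 8.69, 8.54, 9.07 and 8.0, Irf9 9.44, 9.24, 9.66 and 9.15, Stat2 9.02, 8.96, 9.28 and 9.09 and Irgm1 9.36, 9.28, 9.45 and 9.45. None of these 5 was called in LT tumors or LT NTL against the controls.

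Most immune cell lists had higher markers in LT tumors. All 5 leukocyte markers were higher than in NTL, Ptprc (CD45) by 1.18 ± 0.21, and their summed level was 11.0 to 11.9 in tumors and 9.74 to 10.3 in NTL, without overlap. Higher were also 8 of 9 monocyte-derived cell markers, 6 of 14 T and NK cell markers, 3 of 7 B cell markers and 5 of 6 neutrophil markers. Of 8 Kupffer cell markers 1 was higher and 2 were lower, with a median change of -0.21 and a summed level of 10.6 to 12.9 in tumors and 11.4 to 12.2 in NTL. Of 7 vascular endothelial markers 5 rose (summed level 11.3 to 12.5 in tumors and 10.9 to 11.1 in NTL), and of 7 sinusoidal endothelial markers 4 fell (10.9 to 12.9 and 12.5 to 12.8). Of 6 plasmacytoid dendritic cell markers 2 rose, and Siglech was not called (summed level 9.27 to 10.2 in tumors and 8.95 to 9.18 in NTL). Their single changes ran from -0.07 to 0.82, with a median of 0.15. In this comparison 20.4% of all genes were called, 10.7% higher and 9.73% lower. The called shares of these immune and endothelial lists ran from 33.3% (plasmacytoid dendritic cells) to 100% (leukocytes). The part of these cells in the result was not tested.

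**Figure D3:**
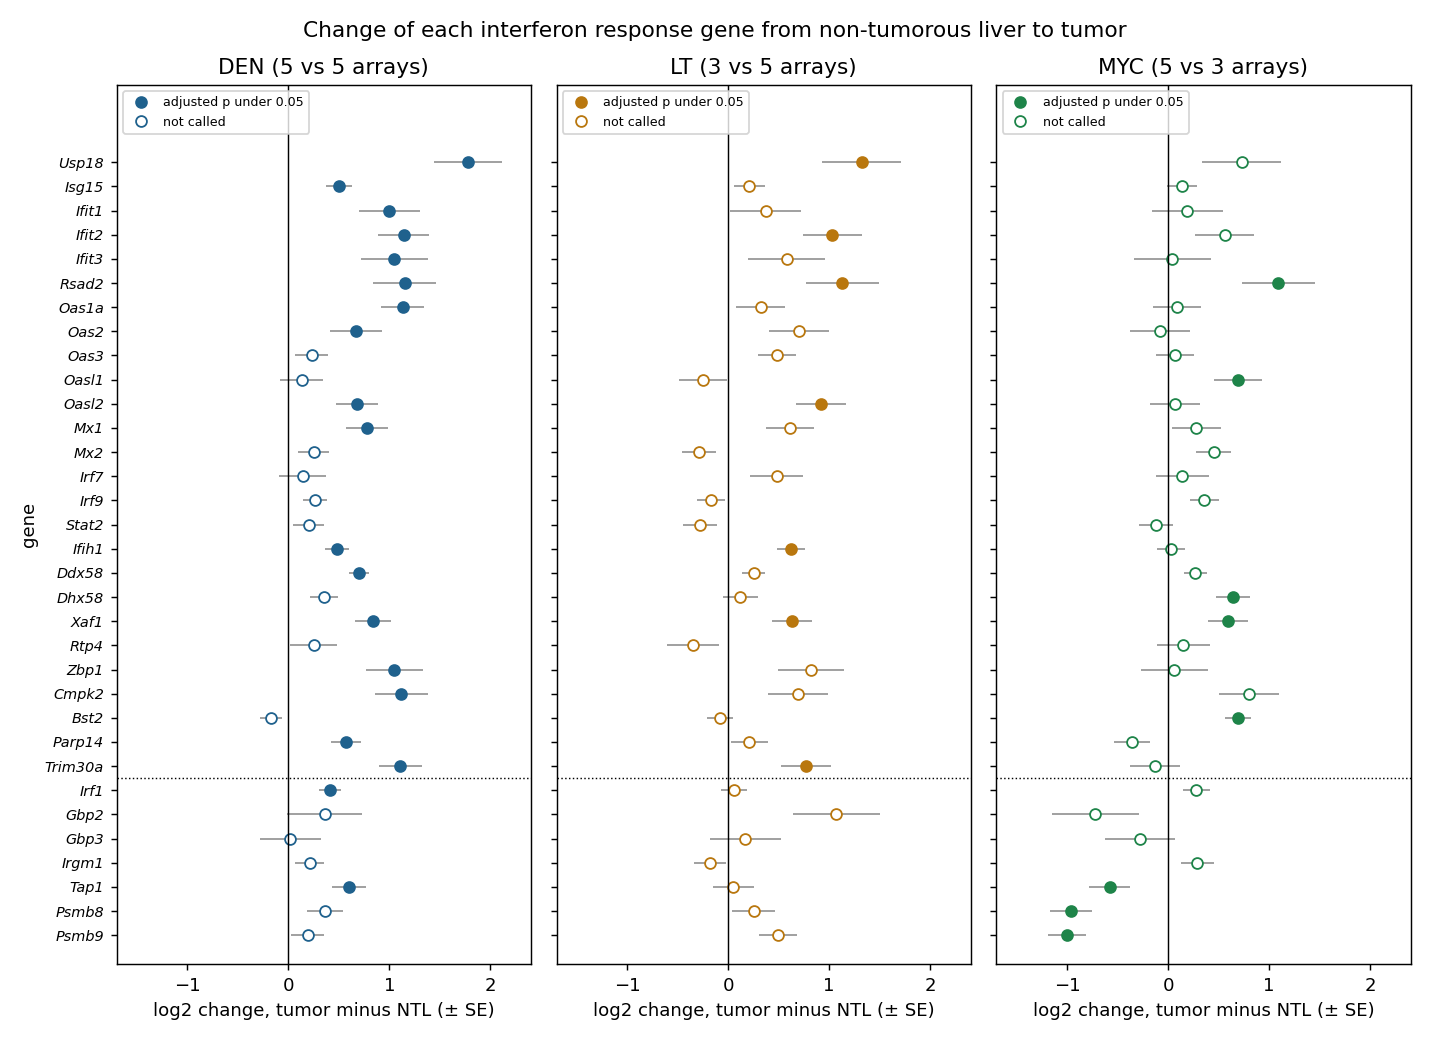
Log2 change from NTL to tumor (x axis, with standard error) of the 33 members (rows) in the DEN, LT and MYC models; filled points have an adjusted p under 0.05 and the dotted line separates the 2 classes. In the DEN panel 19 points are filled and all lie to the right of 0, in the LT panel 7, and in the MYC panel 5 lie to the right and Tap1, Psmb8 and Psmb9 to the left.

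The MYC comparison asks the same of tumors driven by the MYC transgene. Here calls went in both directions: 5 of 26 type I targets rose and none fell, while 3 of 7 genes of the second class fell and none rose. Across all genes 21.8% were called, 11.5% higher and 10.3% lower, and the 8 calls are 24.2% of the members, near that background. Median changes were 0.17 for type I targets and -0.58 for the second class, against -0.03 over all genes. With each array centred on its median, 3 members rose and 3 fell, without Oasl1 and Xaf1. Without each array in turn 4 of the 8 calls held: Bst2, Dhx58, Psmb8 and Psmb9. Without NTL sample 1, 2 or 3 the counts were 4, 5 and 4.

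Psmb9, an immunoproteasome subunit, read 6.68, 6.66, 6.75, 6.97 and 7.07 in the 5 MYC tumors and 7.83, 7.73 and 7.92 in the 3 NTL samples. Every tumor was below every NTL sample, and the change was -1.0 ± 0.19 (SE, adjusted p = 0.000239). Psmb8 read 6.12, 6.0, 6.58, 6.32 and 6.30 in tumors and 7.38, 7.20 and 7.10 in NTL, again without overlap, with a change of -0.96 ± 0.21 (SE, adjusted p = 0.00115). Tap1 read 7.13, 7.01, 7.29, 7.02 and 7.22 in tumors and 7.61, 7.79 and 7.75 in NTL. It fell without overlap, by 0.58 ± 0.20 (adjusted p = 0.033), and was not called without any 1 of the NTL samples or without tumor 2 or 4 (highest adjusted p = 0.111). These 3 genes neighbour each other on chromosome 17, and Tap1 and Psmb9 share the promoter window described above.

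Of the rest of the class, Gbp2 read 5.98, 5.69, 4.93, 5.48 and 5.63 in MYC tumors and 6.12, 6.28 and 6.38 in NTL. All tumors were below all NTL samples, but the difference of -0.72 ± 0.43 (SE, adjusted p = 0.249) did not pass the test. Irf1 read 7.95, 8.0, 8.33, 8.20 and 8.0 in tumors and 7.76, 7.98 and 7.71 in NTL, which overlap, with a difference of 0.28 ± 0.13. Irgm1 read 9.67, 9.24, 9.07, 8.93 and 9.37 in tumors and 8.96, 8.99 and 8.94 in NTL, which overlap as well, with a difference of 0.29 ± 0.16. Gbp3 (-0.28 ± 0.35) and the Irgm2 and Igtp probe set (-0.30 ± 0.25) were not called.

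Bst2, or tetherin, which holds budding virus at the cell surface, read 9.31, 9.11, 8.66, 9.22 and 9.22 in MYC tumors and 8.51, 8.31 and 8.42 in NTL. Every tumor was above every NTL sample, and the change was 0.69 ± 0.13 (SE, adjusted p = 0.000246). Rsad2 read 8.17, 7.50, 7.16, 6.58 and 7.38 in tumors and 6.45, 5.94 and 6.43 in NTL, without overlap, with a change of 1.09 ± 0.36 (SE, adjusted p = 0.0285). Oasl1 read 8.28, 7.92, 8.21, 7.36 and 7.69 in tumors and 7.10, 7.36 and 7.15 in NTL. The lowest tumor and the highest NTL sample both read 7.36, and Oasl1 rose by 0.69 ± 0.24 (SE, adjusted p = 0.0401). Dhx58 rose by 0.64 ± 0.17 and Xaf1 by 0.59 ± 0.20. Rsad2, Oasl1 and Xaf1 lost their calls without NTL sample 1 (highest adjusted p over single arrays 0.137, 0.134 and 0.137), and also without other single arrays: Rsad2 without NTL 2 or 3 or tumor 1 or 2, Oasl1 without NTL 2 or 3 or tumor 1, 2 or 3, and Xaf1 without NTL 3 or tumor 1, 3, 4 or 5.

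Usp18 read 10.43, 9.78, 9.91, 8.91 and 10.57 in MYC tumors and 9.22, 9.02 and 9.32 in NTL. Tumor 4 lay below all NTL samples and the other 4 above, and the difference of 0.73 ± 0.39 (SE, adjusted p = 0.192) was not called. Isg15 read 5.50, 4.95, 5.26, 5.01 and 5.17 in tumors and 4.91, 5.16 and 5.04 in NTL, which overlap. Irf7 read 8.97, 8.14, 8.77, 8.09 and 8.93 in tumors and 8.47, 8.47 and 8.39 in NTL. Stat2 read 9.10, 8.85, 9.41, 8.49 and 9.02 in tumors and 9.14, 9.14 and 9.01 in NTL. Neither separated the groups, and the differences were 0.14 ± 0.26 and -0.12 ± 0.17. Irf9 read 9.45, 9.12, 9.48, 9.49 and 9.69 in tumors and 9.04, 9.20 and 9.03 in NTL, where 4 tumors were above all NTL samples, with a difference of 0.36 ± 0.14 (SE, adjusted p = 0.0622).

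Against the shared controls, 3 members rose in MYC tumors and 5 fell, against 20.5% of all genes called, 10.2% higher and 10.3% lower. The second class had 4 of 7 lower and none higher, with a median change of -0.91 against 0.13 for type I targets. The largest fall was that of Gbp2, whose controls read 7.71, 6.46, 7.72 and 6.89, all above every tumor, with a change of -1.65 ± 0.39 (SE, adjusted p = 0.00276). Psmb8 changed by -1.18 ± 0.19 (SE, adjusted p = 3.4e-05), and Psmb9, with control values of 8.17, 8.09, 8.27 and 7.38, by -1.15 ± 0.17 (SE, adjusted p = 1.06e-05). Tap1, with control values of 8.28, 8.14, 8.21 and 7.54, changed by -0.91 ± 0.18. These 4 calls held without each array in turn.

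Among type I targets, Trim30a read 7.92, 7.24, 7.14, 7.30 and 7.87 in MYC tumors and 8.15, 8.22, 8.82 and 7.77 in controls. Tumors 1 and 5 lay within the control range, and the change of -0.75 ± 0.23 (SE, adjusted p = 0.018) became -0.56 (adjusted p = 0.111) without control 3. MYC NTL read 7.44, 7.62 and 7.82 and overlapped the tumors. Usp18 rose by 1.42 ± 0.36 (SE, adjusted p = 0.00481). Bst2 read 8.38, 8.42, 8.35 and 8.32 in controls, all below every tumor, and rose by 0.74 ± 0.12 (SE, adjusted p = 2.97e-05). Mx2, a dynamin-like GTPase, read 6.19, 6.02, 6.64, 6.65 and 6.67 in tumors and 5.98, 5.83, 5.98 and 5.93 in controls, and rose by 0.50 ± 0.16 (SE, adjusted p = 0.0238). Its call was lost without control 2 (adjusted p = 0.0672) or without tumor 3, 4 or 5.

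MYC NTL against the shared controls gave 1 call, Oasl1, against 3.83% of all genes (1.66% higher and 2.17% lower). Its controls read 8.58, 8.51, 8.49 and 7.70, above all NTL samples, and the change was -1.11 ± 0.25 (SE, adjusted p = 0.00862); without NTL sample 1 the adjusted p was 0.0589. At an unadjusted p under 0.05, 5 of 33 members were lower and none higher, against 8.94% of all genes lower and 7.44% higher. Against controls, MYC tumors differed in Oasl1 by -0.43 ± 0.22. Array medians over the 7 genes of the second class, relative to the control mean, were -0.45 to -0.29 in NTL and -1.03 to -0.78 in tumors.

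**Figure D4:**
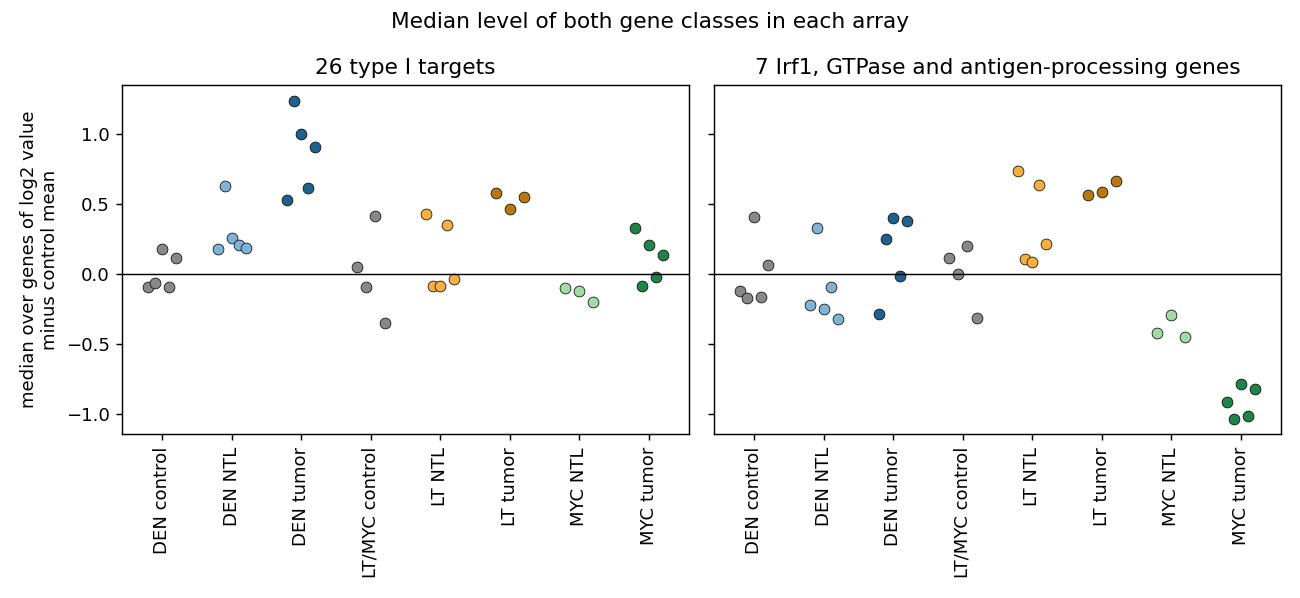
Median over the 26 type I targets (left) and over the 7 genes of the second class (right) of log2 value minus control mean, with 1 point per array by group. In DEN tumors the type I median runs from 0.53 to 1.24 and the second class from -0.28 to 0.40; in MYC tumors the second class runs from -1.03 to -0.78 and type I targets from -0.08 to 0.33.

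In MYC tumors none of 5 leukocyte markers was called against NTL or against controls; their summed level was 9.67 to 10.5 in tumors, 9.48 to 9.77 in NTL and 10.0 to 10.8 in controls. Of 8 Kupffer cell markers 2 fell against NTL and 4 against controls, and of 14 T and NK cell markers 1 and 4 fell. Monocyte-derived cell markers were higher than in NTL in 3 of 9, with none lower (summed level 10.0 to 10.9 in tumors and 9.64 to 9.81 in NTL), and lower than in controls in 1. Of 7 vascular endothelial markers 2 rose and 1 fell against NTL, and of 7 sinusoidal endothelial markers 3 fell against NTL and 5 against controls. Of all genes 21.8% were called against NTL and 20.5% against controls. The Kupffer cell (25%) and T and NK cell (7.14%) shares against NTL are near or below that. Monocyte-derived cell (33.3%) and both endothelial shares (42.9% each) lie above it. Against controls the shares were 50% for Kupffer cells, 28.6% for T and NK cells, 11.1% for monocyte-derived cells and 71.4% for sinusoidal endothelium. The part of these cells in the lower values of Tap1, Psmb8, Psmb9 and Gbp2 was not tested.

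The differences between models were tested in the same fit. Between the DEN and MYC changes from NTL, 8 members differed, against 15.1% of all genes (7.98% higher and 7.12% lower in MYC). Lower in MYC were the changes of Psmb8 (-1.33 ± 0.28, adjusted p = 0.00118), Tap1 (-1.19 ± 0.26), Psmb9 (-1.19 ± 0.25), Trim30a (-1.24 ± 0.33), Oas1a (-1.04 ± 0.32), Parp14 (-0.93 ± 0.24) and Ddx58 (-0.43 ± 0.15). Bst2 was the only member called with a larger change in MYC, by 0.86 ± 0.17 (SE, adjusted p = 0.000727). Tap1 was called higher in DEN and lower in MYC tumors. Ddx58 lost this call in 15 of the 18 fits that leave out an array, and with the replicate block, shared stems averaged or eBayes with trend and robust. Oas1a lost it in 5 of the 18 and with only the groups compared in the fit. The highest adjusted p without a single array were 0.145 and 0.0705, both without MYC NTL 3.

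Between the LT and MYC changes 4 members differed, against 12.4% of all genes (6.6% higher and 5.76% lower in MYC). Psmb9 (-1.50 ± 0.26) and Psmb8 (-1.21 ± 0.29) were lower and Bst2 (0.76 ± 0.18) and Mx2 (0.74 ± 0.25) higher in MYC. Mx2 lost this call in 10 of the 16 fits that leave out an array, such as that without MYC NTL 3 (adjusted p = 0.13), and under 5 of the 8 other alternatives. Gbp2 differed by -1.79 ± 0.61 but was not called. Between LT and DEN the changes differed in 1 member, Ddx58 (-0.45 ± 0.15, adjusted p = 0.0435), against 13.9% of all genes (7.61% higher and 6.3% lower in LT), and 14 of the 18 fits that leave out an array lost it, such as that without LT tumor 2 (adjusted p = 0.105). For Oas1a, called in DEN and not in LT, the difference was -0.81 ± 0.32 and was not called. The members called higher from NTL to tumor in all 3 models were Rsad2 and Xaf1, 2 of 33, against 1.77% of all genes. Gbp2, Gbp3, Irf7, Irf9, Irgm1, Mx2, Oas3, Rtp4 and Stat2 were called in none of the 3.

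Upstream of these targets, the interferon genes themselves were mostly read at a low level. None of 8 measured ligand genes was called in any tumor against its NTL by limma, with 2, 1 and 1 at an unadjusted p under 0.05 in DEN, LT and MYC, against 41.5%, 31.9% and 33.4% of all genes. Relative to controls, 1 was called higher in DEN tumors, 1 lower in LT tumors and 1 lower in MYC tumors. Each is 12.5% of the list, against 30.7%, 16.5% and 20.5% of all genes. For 6 of the 8, Ifnb1 and Ifng among them, every group mean lay between 3.17 and 4.18, near or below the first quartile of the arrays (4.13 to 4.24), where a change may go unseen.

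Of 13 receptor and JAK-STAT genes, 11 rose in DEN tumors against NTL, 5 in LT tumors and 4 in MYC tumors, where 2 fell. The called shares of 84.6%, 38.5% and 46.2% stand beside 32.2%, 20.4% and 21.8% of all genes. Ifngr1, the ligand-binding chain of the interferon gamma receptor, rose in all 3 models, by 1.45 ± 0.18, 1.03 ± 0.21 and 1.21 ± 0.21. Ifnlr1, the receptor chain for interferon lambda, rose in DEN tumors by 1.25 ± 0.10 (SE, adjusted p = 9.85e-11) and was not called in LT or MYC. Il10rb, its partner chain, rose by 1.0 ± 0.17, 1.25 ± 0.19 and 0.59 ± 0.19. For the type I receptor, Ifnar1 rose by 0.26 ± 0.08 in DEN, and was not called in LT (0.20 ± 0.10) or MYC (0.02 ± 0.10). Ifnar2 fell in MYC tumors by 0.45 ± 0.09, and Jak1, the shared kinase, by 0.37 ± 0.10.

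Of 18 nucleic acid sensors and relays, 5 rose in DEN tumors, 3 rose and 2 fell in LT tumors, and 1 rose and 1 fell in MYC tumors. These are 27.8%, 27.8% and 11.1% of the list, so that DEN and MYC lie below the shares of all genes given above. In LT, Sting1, the relay for cytosolic DNA, rose by 1.28 ± 0.21 and Tlr9, an endosomal DNA receptor, by 1.17 ± 0.22. In MYC, Eif2ak2, the RNA-activated kinase PKR, rose by 0.40 ± 0.14 and Irf5 fell by 1.13 ± 0.21. Irf5 rose in DEN by 0.53 ± 0.18.

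A further list of 28 type I targets outside the 36 gave 10 higher and 1 lower in DEN tumors, 5 and 2 in LT, and 3 and 3 in MYC. The shares called, 39.3%, 25% and 21.4%, are near those of all genes in LT and MYC. Ifit3b rose in DEN by 1.34 ± 0.37 and Phf11d by 1.22 ± 0.20. Ifitm1, of the membrane proteins that block viral entry, fell in each model, with changes of -1.18 ± 0.29, -1.20 ± 0.33 and -1.40 ± 0.33. Ifi27 rose in MYC by 0.97 ± 0.23. Of 16 further interferon gamma targets, 3 rose in DEN tumors and 4 in LT tumors, and 3 fell in MYC tumors. These shares of 18.8%, 25% and 18.8% lie below those of all genes in DEN and MYC. Gbp9 rose by 1.31 ± 0.22 in DEN and 1.08 ± 0.26 in LT, the chemokine Cxcl10 rose by 1.07 ± 0.36 in DEN, and Gbp8 rose by 1.25 ± 0.31 in LT. In MYC tumors the changes were -1.54 ± 0.30 for Gbp7 and -0.80 ± 0.21 for Nlrc5, the transactivator of MHC class I genes.

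Of 16 other genes of MHC class I antigen processing, 5 rose and 2 fell in DEN tumors, 2 rose in LT tumors and 3 fell in MYC tumors. The shares called were 43.8%, 12.5% and 18.8%, the last 2 below those of all genes. The class I heavy chain H2-K1 changed by -0.65 ± 0.13 (SE, adjusted p = 0.000524) in MYC tumors and was not called in DEN (0.26 ± 0.11) or LT (-0.05 ± 0.13). H2-T23, a nonclassical class I molecule, rose by 0.60 ± 0.11 in DEN and changed by -0.45 ± 0.13 in MYC. In LT, Tapbp, which holds Tap1 and class I together, rose by 0.43 ± 0.14 and the proteasome activator Psme2 by 0.39 ± 0.12.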

How the data were processed

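RNA of 35 mouse liver samples in 8 groups was hybridised to expression arrays, 1 per sample. Per the labels' protocols 100 ng of RNA were labelled. The log2 values deposited by the authors come from RMA, per the submitters' processing notes. Its software version, and whether 1 run covered all arrays, is not given in the sources used here. Arrays have no read depth, so their number limits the precision.

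A single symbol was assigned to 21218 of the 35556 probe sets, more than 1 to 1881 and no symbol to 12457. The brightest single-symbol probe set was taken for each of 18820 genes; among the members, Irf1 had more than 1. Comparisons used limma 3.58.1 under R 4.3.3: lmFit on the 35 arrays together with 8 group means, then eBayes. P-values were adjusted by Benjamini-Hochberg over the 18820 genes, and a gene with an adjusted p under 0.05 is described as called. Errors beside changes are standard errors. The fit was tested on simulated data. No filter on dim genes was applied. Where labels do not settle that arrays come from separate animals, p-values measure the spread between these samples only.

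The members, gene lists and tests were chosen with earlier results of these data known. Of each list, Ifnar1, Ifnar2, Ifngr1 and up to 2 called genes with the largest change per comparison are named, and of the members a fixed set of 10 and up to 3 called genes per class and direction; further genes were named after their values were seen. Same-numbered arrays of LT tumors and shared controls deviated weakly together (r of 0.14 to 0.23 over 3 pairs). In the other comparisons not every pair exceeded 0.1. Tumor, NTL and control arrays carry different mouse identifiers, so the numbers are not known to pair animals. The main fit used no pairing. Alternatives were: only the groups compared, median centring, the mean of a gene's probe sets, dim genes left out, a replicate block, arrays of a shared identifier stem averaged, an Xist term, eBayes with trend and robust, and leaving out each array.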

Additional observations from a re-analysis of the deposited data

Results flagged for a closer look

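In 198 checks of a member within a group of 4 or 5 arrays, 15 had a single array far from the others; chance flags about 1 in 20 such groups. DEN NTL 2 stood apart, high, for Xaf1 (7.67), Irgm1 (9.74) and Psmb8 (8.30). DEN tumor 2 stood apart, high, for Oas2 (8.73), Oasl1 (9.33) and Parp14 (9.00), and DEN tumor 1, low, for Ddx58 (9.57). MYC tumor 1 was high for Ifit1 (8.12) and Ifit3 (8.91), and MYC tumor 3 for Mx1 (5.23). Among controls, DEN control 4 was low for Usp18 (7.0), DEN control 2 for Ifit2 (5.15) and DEN control 1 for Bst2 (8.05). Shared control 3 was high for Ifit2 (5.86), and shared control 4 was low for Oasl1 (7.70).

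The change from NTL to tumor differed between models in 13 tests of the difference over the 33 members. For MYC minus DEN these were 24.2% of the members, against 15.1% of all genes, for MYC minus LT 12.1% against 12.4%, and for LT minus DEN 3.03% against 13.9%. The last 2 shares are not above those of all genes. MYC minus DEN was -1.04 for Oas1a, -0.43 for Ddx58, 0.86 for Bst2, -0.93 for Parp14, -1.24 for Trim30a, -1.19 for Tap1, -1.33 for Psmb8 and -1.19 for Psmb9. MYC minus LT was 0.74 for Mx2, 0.76 for Bst2, -1.21 for Psmb8 and -1.50 for Psmb9. LT minus DEN was -0.45 for Ddx58.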

How the results depend on the processing

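Called members, by comparison, were counted under 8 alternatives and without each array. In DEN tumors against NTL (19) the counts were 18 to 20 and, without single arrays, 17 to 21; against controls (24) they were 21 to 25 and 21 to 26. In LT tumors against NTL (7) the count was 0 with only these groups in the fit and 2 with shared stems averaged, and 1 to 11 without single arrays. Of all genes, these first 2 fits called 615 and 2311, against 3838 in the main fit. Against controls (12) it was 0 with only these groups, 5 with stems averaged and 2 with the Xist term, and 5 to 14 without single arrays. Of all genes, these first 3 fits called 0, 1616 and 1273, against 3107. In MYC tumors against NTL (8) the count was 6 to 11 under the 8 alternatives and 4 to 8 without single arrays. The 11 came with only these groups in the fit, where 3431 of all genes were called against 4106. Against controls (8) it was 7 to 9 under the alternatives and also 7 to 9 without single arrays. DEN NTL against controls (0) gave 2 with only these groups, where 183 of all genes were called against 37. LT NTL against controls (1) gave 0 with the Xist term, where 174 of all genes were called against 454. MYC NTL against controls (1) gave 3 with only these groups, 2 with dim genes left out, 2 with stems averaged and 0 to 2 without single arrays. Of all genes, 1537 were called there with only these groups, against 721. LT minus DEN (1) gave 0 with stems averaged, 2 with the Xist term and 0 to 4 without single arrays. MYC minus LT (4) gave 7 with arrays centred and 3 to 6 without single arrays, and MYC minus DEN (8) gave 6 to 9.

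With the replicate block, 18, 6 and 6 members were called in DEN, LT and MYC tumors against NTL, 23, 8 and 8 against controls, and 0, 1 and 1 in DEN, LT and MYC NTL against controls. The block gave 1, 7 and 4 for LT minus DEN, MYC minus DEN and MYC minus LT. In all of these comparisons the samples are known to share only a number.

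Of 1692 values of called genes under an alternative, 1477 stayed called and 215 did not; none changed sign. Centring moved the median of all genes from -0.03 to -0.17 in LT tumors against NTL and from -0.05 to -0.20 against controls. The members' medians lay 0.40 and 0.59 above the median of all genes. Centring subtracts 1 value per array and moves the change of every gene equally, so it cannot alter these gaps. Why the array medians differ between these groups was not tested. The 3 LT tumors and 3 MYC NTL samples limit what those comparisons can show.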
